A study of Mus musculus with 3 samples.

Results

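Ly6c2, Ly6c1, Ly6a and Ly6e are 4 genes of the Ly6 family, out of 18029 genes counted in donor T cells from the spleens of mice after allogeneic bone marrow transplantation (BMT). They were chosen by their measured change in CD4 T cells of mice given the higher dose of cyclosporin A (CSA), so their values in that comparison are a description, with no test. All recipients were B6D2F1 mice that received B6 bone marrow, B6 T cells and a small number of TEa T cells, which carry a transgenic receptor for a recipient alloantigen. Treatment ran from day 0 through day 6 with saline, with 5 mg/kg of CSA or with 50 mg/kg of CSA, and T cells were sorted from the spleen on day 7. The sources used here do not give the recipients' age. Each group held 6 mice, whose spleens were pooled 2 by 2 into 3 pools with a hashtag antibody each, and the 3 pools of a group went through 1 single-cell 5′ capture. There are thus 3 pools per group and 9 in all, and treatment and capture cannot be told apart in any comparison between groups. The cells had passed a sort for CD4 or CD8, the 2 lineages were mixed 1:1, and the pools give no information on the number of cells in the spleen.

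Ly6 proteins are small, cysteine-rich proteins that are tied to the outer face of the plasma membrane by a glycosylphosphatidylinositol (GPI) anchor. Ly6c1 and Ly6c2 encode the 2 forms of Ly6C, which is carried by monocytes, by many memory CD8 T cells and by a share of CD4 T cells. Ly6a encodes Sca-1, a marker of hematopoietic stem cells that T cells raise on activation and in response to interferon. Ly6e encodes another interferon-inducible member that thymocytes and lymphocytes carry widely. CSA inhibits calcineurin, the phosphatase that lets the transcription factor NFAT enter the nucleus after T cell receptor signaling.

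All 4 genes lie on mouse chromosome 15 (build GRCm38, GENCODE vM21) and are protein coding. Ly6e (ENSMUSG00000022587.14) is on the plus strand at chr15:74955051-74959905. On the minus strand are Ly6a (ENSMUSG00000075602.10) at chr15:74994877-74998031, Ly6c1 (ENSMUSG00000079018.10) at chr15:75044018-75048830 and Ly6c2 (ENSMUSG00000022584.14) at chr15:75108158-75111970. The coding sequences of Ly6c2 and Ly6c1 are both 393 bases long and match at 384 of them (97.7%), so how reads were divided between the pair matters to every value of Ly6c1. The beginning of both coding sequences, bases 1 to 120, is shown because 6 of the 9 differing bases lie there, in capitals, at the 5′ end that this chemistry reads.
Ly6c2: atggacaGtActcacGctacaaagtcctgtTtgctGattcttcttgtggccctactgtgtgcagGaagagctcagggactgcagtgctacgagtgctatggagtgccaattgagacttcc
Ly6c1: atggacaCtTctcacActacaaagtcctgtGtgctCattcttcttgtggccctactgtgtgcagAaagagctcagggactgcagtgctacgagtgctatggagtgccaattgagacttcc

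Of the 733 windows of 90 bases in the Ly6c2 transcript, 134 (18.3%) also occur letter for letter in the Ly6c1 transcript, and this share is 46.9% in the first 300 bases. In the other direction 134 of 755 windows of Ly6c1 (17.7%) occur in Ly6c2, and 41.2% in its first 300 bases. Ly6a and Ly6e share 0 such windows with the pair or with each other. The coding sequence of Ly6a matches those of Ly6c2 and Ly6c1 at 83.5% and 83.7% of aligned bases, and the identity of Ly6e with the other 3 lies between 55.4% and 57.6%. The counts of Ly6c1 in particular are uncertain, since a small share of Ly6c2 reads placed on it would be enough to change them.

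The bases upstream of the Ly6c pair were read from RefSeq promoter windows (GRCm38.p6), which hold entries for these 2 of the 4 genes. For each gene the window of 250 bases that lies outside the gene body is shown, 5′ to 3′ on the minus strand, because the pair differed in its level and its dose response. Capitals mark GGAAA on either strand, the core of the sites that NFAT binds.
Ly6c2, chr15:75111972-75112221: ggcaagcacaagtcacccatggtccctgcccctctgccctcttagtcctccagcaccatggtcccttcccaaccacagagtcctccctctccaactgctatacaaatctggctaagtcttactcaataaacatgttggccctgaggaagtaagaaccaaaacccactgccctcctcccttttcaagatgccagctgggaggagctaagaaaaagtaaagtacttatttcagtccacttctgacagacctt
Ly6c1, chr15:75048838-75049087: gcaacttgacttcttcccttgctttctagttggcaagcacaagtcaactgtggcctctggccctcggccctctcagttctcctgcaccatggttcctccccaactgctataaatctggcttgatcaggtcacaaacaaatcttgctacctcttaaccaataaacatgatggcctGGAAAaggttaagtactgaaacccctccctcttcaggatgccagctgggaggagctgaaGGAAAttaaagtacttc

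The 2 windows align over 216 bases, of which 164 match (75.9%). GGAAA, searched on both strands, was found 2 times in the Ly6c1 window and 0 times in the Ly6c2 window, and it occurs in 55.6% of all 32851 promoter windows. TATAAA was found 1 time in the Ly6c1 window, 0 times in the Ly6c2 window and in 12.4% of all windows. Neither window held the core of interferon response elements (GAAA repeated after a gap of any 2 bases, which can overlap GGAAA) or TTCNNNGAA, the site of STAT factors. These occur in 2.98% and 7.02% of all windows. A match is a run of letters and does not show that a factor binds there.

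The files held 21204 cells, 10371 in the CD4 and 10833 in the CD8 table, and 280 TEa cells were set aside from the polyclonal cells. Counts of unique molecular identifiers (UMIs) were added up by pool and lineage, to 4086252 to 7663132 UMIs for CD4 pools and 4392100 to 11454636 for CD8 pools. Cells were deeper in CSA-treated mice: the median UMIs per cell were 3107, 4416 and 5998 in CD4 cells and 4108, 6121.5 and 7183 in CD8 cells given saline, 5 mg/kg and 50 mg/kg. Every cell of the CD4 table had a Cd4 UMI and no Cd8a UMI, and the CD8 table was the reverse. Tables split by these counts would show this at any purity, so it is no measure of purity. The pan-T gene Cd3e lay at 789 to 1322 CPM in all pools, where CPM is the standard rate of a gene's counts over all counts of the sum. Pool levels are given as CPM scaled by TMM, a scaling that sets the median gene near no change. With scaling by library size alone the median gene was lower by 0.36 and 0.44 (log2) in CD4 and by 0.42 and 0.53 in CD8 cells at 5 and 50 mg/kg, so every change below is relative to the median gene. The share of calls that were higher then moved from 50.4% to 13.9% and from 49.2% to 20.4% in CD4 cells, and from 49.7% to 15.8% and from 50.1% to 19.9% in CD8 cells. None of the members' pooled dose changes turned its sign with this scaling, and the values that lost their call are given beside each.

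Ly6c2 RNA was low in CD4 cells of saline-treated mice and about as low at 5 mg/kg, and it was far higher at 50 mg/kg, with a log2 change of 3.66 against saline (3.22 with library-size scaling). In CD4 cells the 3 saline pools held Ly6c2 at 160, 145 and 176 CPM, the 5 mg/kg pools at 184, 229 and 208 CPM and the 50 mg/kg pools at 2336, 2032 and 1713 CPM. With TMM scaling no pool of a dose overlapped those of another. In raw CPM the saline pools (191, 174 and 212) and the 5 mg/kg pools (174, 215 and 193) overlapped. This log2 change was 3.66 ± 0.09 (SE) against saline and 3.29 ± 0.09 against 5 mg/kg, by the contrasts from which the gene was chosen. At 5 mg/kg the change was 0.37 ± 0.10 (edgeR's quasi-likelihood test, Benjamini-Hochberg adjusted p = 0.00312), and 0.02 with library-size scaling (adjusted p = 0.903). The saline and 5 mg/kg CD4 pools were the lower side of the contrasts that chose the members. P-values of the members that compare these pools with each other or with CD8 cells are not independent of that choice.

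CD8 cells held more Ly6c2 RNA than CD4 cells in the saline group and also rose with dose. Their saline pools lay at 468, 349 and 403 CPM, the 5 mg/kg pools at 586, 720 and 667 CPM and the 50 mg/kg pools at 2655, 2800 and 2175 CPM, again without overlap with TMM scaling. In raw CPM the saline pools (582, 435 and 501) and the 5 mg/kg pools (541, 667 and 622) overlapped. Ly6c2 rose by 0.70 ± 0.10 (log2) at 5 mg/kg (edgeR adjusted p = 6.55e-06) and by 2.65 ± 0.10 at 50 mg/kg (adjusted p = 7.07e-14), and it was 1.95 ± 0.10 higher at 50 than at 5 mg/kg (adjusted p = 5.26e-11). All 3 comparisons passed with library-size scaling too, at 0.27, 2.12 and 1.84.

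**Figure D1:**
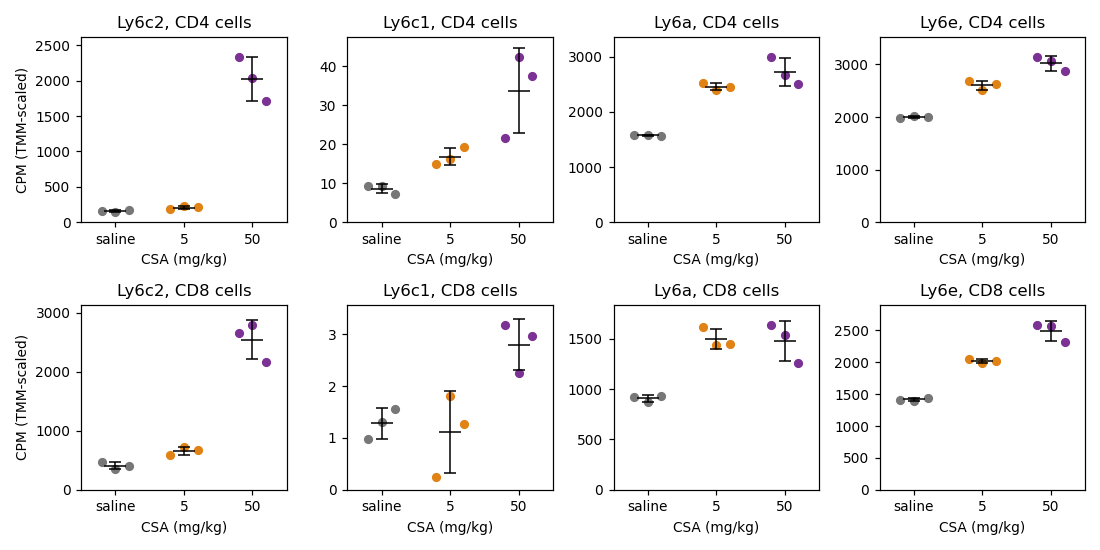
Level of each of the 4 Ly6 genes (rows: CD4 and CD8 cells; y axis: TMM-scaled CPM from 0, each panel with its own range) in the 3 pools of mice given saline, CSA 5 mg/kg or CSA 50 mg/kg. Points are pools, horizontal lines means and bars the SD (n = 3). The CD4 pools of Ly6c2 sit between 145 and 229 CPM in the first 2 groups and between 1713 and 2336 CPM at 50 mg/kg.

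Ly6c1, the near-identical neighbour, was scarce. CD4 saline pools held it at 9.22, 9.34 and 7.17 CPM, the 5 mg/kg pools at 15.0, 16.3 and 19.3 CPM and the 50 mg/kg pools at 21.5, 42.4 and 37.5 CPM, from 44 to 254 UMIs per pool. The groups did not overlap. Ly6c1 rose by 1.00 ± 0.24 (log2) in CD4 cells at 5 mg/kg (edgeR adjusted p = 0.00133) and passed with library-size scaling (0.64, adjusted p = 0.0242). At 50 mg/kg it lay 1.99 ± 0.20 above saline, as a description.

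In CD8 cells Ly6c1 was close to the limit of counting, with 1 to 29 UMIs per pool. The saline pools held 0.976, 1.31 and 1.56 CPM, the 5 mg/kg pools 0.247, 1.81 and 1.27 CPM and the 50 mg/kg pools 3.19, 2.26 and 2.96 CPM, so the first 2 groups overlapped and the third lay above both. The change was -0.11 ± 0.43 at 5 mg/kg (edgeR adjusted p = 0.840), with a positive sign (0.21) without pool 1 of that dose and also (0.05) without saline pool 3. It rose by 1.11 ± 0.33 at 50 mg/kg (adjusted p = 0.00595), a call that library-size scaling lost (0.58, adjusted p = 0.120). Between the doses it was 1.22 ± 0.38 higher at 50 mg/kg (adjusted p = 0.0156), and without pool 1 or pool 3 of the 5 mg/kg group this missed the threshold (0.90, adjusted p = 0.0540, and 1.29, adjusted p = 0.0536).

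Ly6a, the gene of Sca-1, rose at the lower dose and moved little beyond it. CD4 saline pools lay at 1576, 1578 and 1569 CPM, the 5 mg/kg pools at 2521, 2391 and 2453 CPM and the 50 mg/kg pools at 2993, 2660 and 2504 CPM, and the lowest pool at 50 mg/kg lay under the highest at 5 mg/kg. The CD4 change was 0.64 ± 0.05 (log2) at 5 mg/kg (edgeR adjusted p = 1.64e-10) and 0.28 with library-size scaling (adjusted p = 1.61e-05), and 0.79 ± 0.05 at 50 mg/kg as a description. In CD8 cells the saline pools held 925, 872 and 931 CPM, the 5 mg/kg pools 1618, 1438 and 1449 CPM and the 50 mg/kg pools 1643, 1537 and 1258 CPM. Both doses lay above saline, by 0.72 ± 0.07 (adjusted p = 9.21e-08) and 0.70 ± 0.07 (adjusted p = 6.18e-08), and both passed with library-size scaling, at 0.30 and 0.17. The 2 doses overlapped, and their difference of -0.02 ± 0.07 did not pass (adjusted p = 0.844), with a positive sign (0.09) without pool 3 of the 50 mg/kg group and (0.04) without pool 1 of the 5 mg/kg group.

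Ly6e rose with dose in CD8 cells and its pools were tightly grouped. For CD4 cells the saline pools stood at 1987, 2014 and 2000 CPM, those of 5 mg/kg at 2687, 2517 and 2620 CPM and those of 50 mg/kg at 3142, 3074 and 2867 CPM. CD8 pools lay at 1415, 1397 and 1442 CPM, then 2059, 1988 and 2019 CPM, then 2592, 2563 and 2315 CPM in the same order. With TMM scaling no group overlapped another in either lineage. In raw CPM the CD4 pools at 5 mg/kg (2538, 2362 and 2425) overlapped those of saline and of 50 mg/kg. In CD4 cells Ly6e rose by 0.38 ± 0.03 (log2) at 5 mg/kg (edgeR adjusted p = 1.01e-08), which library-size scaling brought to 0.02 (adjusted p = 0.552), and the value at 50 mg/kg was 0.60 ± 0.03. In CD8 cells it rose by 0.51 ± 0.04 (adjusted p = 5.23e-09; 0.09 and adjusted p = 0.0698 with library-size scaling) and by 0.81 ± 0.04 (adjusted p = 3.61e-12; 0.28 with library-size scaling). The step from 5 to 50 mg/kg in CD8 cells was 0.30 ± 0.04 (adjusted p = 1.24e-05), and 0.06 in cells outside the cycling clusters (adjusted p = 0.384).

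These calls have to be read against how much of the transcriptome moved. In CD4 cells at 5 mg/kg 4 of 4 members were higher, where 51.7% of 10568 genes tested passed in either direction and 26.1% passed as higher. The CD4 pools of this comparison also entered the choice of members. In CD8 cells 3 of 4 members rose at 5 mg/kg and 4 of 4 at 50 mg/kg, where 60.2% and 74.0% of 10841 genes passed (29.9% and 37.1% as higher), and 3 of 4 rose between the doses, where 41.0% passed. For the comparisons that chose the members the background was 70.5% (CD4, 50 mg/kg against saline) and 41.2% (CD4, 50 against 5 mg/kg). With TMM scaling pools did not overlap, in the higher direction, for 28.7% of CD4 genes at 5 mg/kg (4 of 4 members) and for 32.5% and 37.5% of CD8 genes at 5 and 50 mg/kg (3 and 4 of 4 members). Between the 2 doses this share was 24.1% in CD8 cells (3 of 4 members), and it was 35.7% and 24.7% in the CD4 comparisons that chose the members. In raw CPM pools overlapped with saline at 5 mg/kg for Ly6c2 in both lineages and for Ly6e in CD4 cells. At 50 mg/kg they overlapped for Ly6a in CD8 cells. All comparisons with saline use the same 3 saline pools, so the 2 doses are not independent of each other.

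The 2 lineages differed in each member, and in opposite directions within the Ly6c pair. Ly6c2 was higher in CD8 than in CD4 cells by 1.41 and 1.72 (log2) in the saline and 5 mg/kg groups (edgeR on both lineages of the same pools, adjusted p = 9.70e-17 and 2.06e-18). Ly6c1 was lower in CD8 cells by the contrasts of -2.62 and -3.78 (adjusted p = 3.54e-08 and 1.39e-10). Ly6a was also lower in CD8 cells (-0.71 and -0.66), and so was Ly6e (-0.42 and -0.32), with adjusted p of at most 5.10e-10. All 4 members passed in these 2 groups, where 40.4% and 34.3% of genes passed. The CD4 pools of both groups were the lower side of the contrasts that chose the members, so these p-values are not independent of that choice. At 50 mg/kg the CD4 pools were the higher side, so the differences of 0.39 (Ly6c2), -3.53 (Ly6c1), -0.83 (Ly6a) and -0.23 (Ly6e) between CD8 and CD4 cells there are a description, beside a background of 30.4%.

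Whether the dose response itself differed between the lineages was tested at 5 mg/kg, where 3.65% of genes passed. The CD4 pools of this test also entered the choice of members, so it is not independent of that choice. The Ly6c2 change was larger in CD8 than in CD4 cells by 0.31 ± 0.08 (log2; edgeR interaction, adjusted p = 0.0219). This call rested on single pools: it was lost without saline pool 2 (0.27), saline pool 3 (0.23) or any 1 of the 5 mg/kg pools (0.31, 0.31 and 0.30), with adjusted p of 0.0615 to 0.140. The differences for Ly6e (0.10, adjusted p = 0.156), Ly6a (0.05, adjusted p = 0.668) and Ly6c1 (-1.16, adjusted p = 0.234) did not pass. At 50 mg/kg, where the choice of members used the CD4 side, the CD8 change of Ly6c2 was smaller by 1.02 on the log2 scale (contrast -1.02 ± 0.07). The same contrast was -0.91 for Ly6c1, 0.19 for Ly6e and -0.12 for Ly6a, against a background of 19.8% of genes past the threshold.

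The authors deposited cluster numbers for each cell, and the names used here are those that the study gave to the numbers. Levels within clusters, clones and TEa cells are raw CPM, with no TMM scaling. In saline-treated mice Ly6c2 was highest among CD4 clusters in C1 (Cd226lo effector) at 383 ± 33.6 CPM (SD, n = 3 pools). C5 (cycling effector 2, 280 ± 68.9), C0 (Cd226hi effector, 270 ± 5.78), C10 (Isg15hi, 268 ± 66.8) and C8 (Fcer1ghi, 220 ± 127) followed and lay within each other's spread. C3 (148), C4 (follicular helper, 137), C9 (naive, 129), C6 (129) and C2 (Tcf7hi precursor-like, 116) formed the next set, with SDs of 5.04 to 34.1, and C7 (CD4 cytotoxic) was at 71.2 ± 3.70.

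At 50 mg/kg the order among CD4 clusters was different. C0 led at 2333 ± 283 CPM, and C5 (2194 ± 304), C10 (2132 ± 472), C6 (2022 ± 322, 2 pools) and C3 (1967 ± 315) followed, each within the spread of its neighbour, while C2 stood at 1215 ± 345. The naive cluster C9 was apart from all of these, at 183 ± 193, with pools at 13.2, 145 and 392 CPM from 20 to 46 cells each. Regulatory T cells (C11) at 50 mg/kg also lay low, at 166, 645 and 515 CPM from 16 to 22 cells. Within-cluster changes at 50 mg/kg, given as a description, ran from 2.03 in C1 to 4.83 in C7 in 10 of the 11 CD4 clusters that could be fitted, and C9 gave 0.58 ± 0.37. The share of genes past the threshold in those clusters ran from 2.88% to 54.8%. C11 and C12 (Th17) held too few cells to be fitted.

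**Figure D2:**
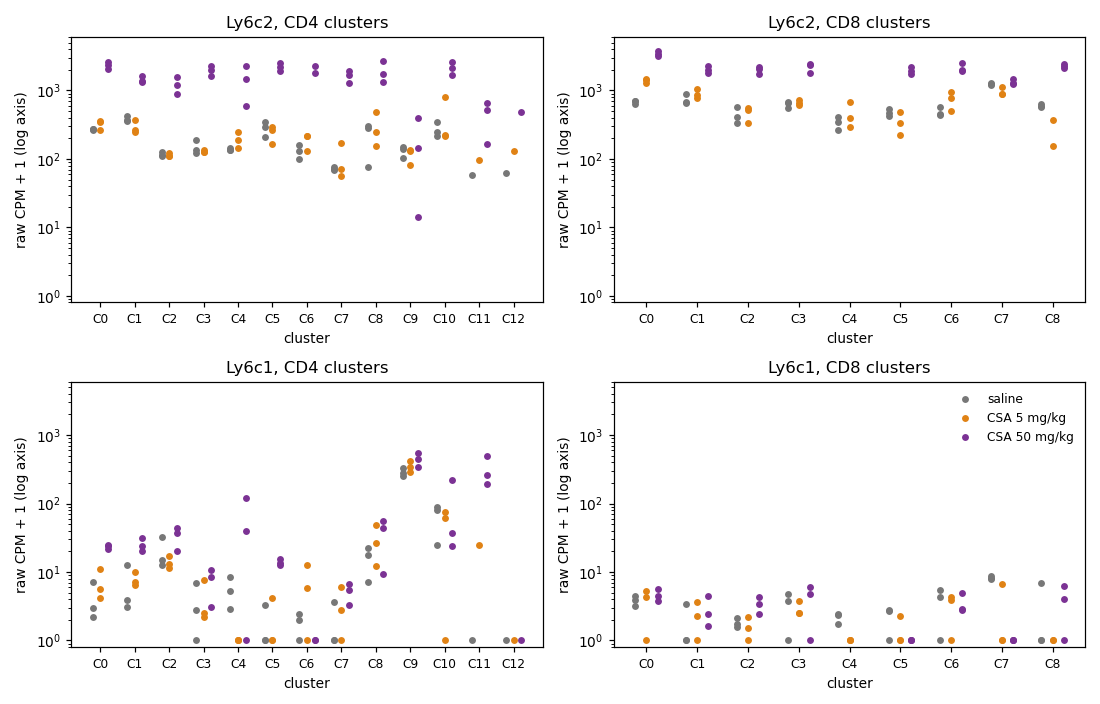
Ly6c2 (top) and Ly6c1 (bottom) in each cluster of CD4 and CD8 cells, as raw CPM + 1 on a log axis, one point per pool with at least 10 cells of that cluster, coloured by treatment. Ly6c2 is raised at 50 mg/kg in nearly all clusters other than the naive ones (CD4 C9 and CD8 C7), and Ly6c1 is highest in CD4 C9.

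At 5 mg/kg the CD4 clusters gave values of both signs, and no difference between clusters was tested. Ly6c2 rose in 2 of 11 clusters. C0 rose by 0.57 (log2; edgeR adjusted p = 0.000872, where 16.2% of genes passed), and C7 by 0.87 (adjusted p = 0.0468, where 24.7% passed). With library-size scaling neither passed (0.29, adjusted p = 0.0546, and 0.55, adjusted p = 0.195). The call in C7 was also lost without any 1 of the 3 saline pools (0.86 to 0.94) or without pool 3 of the 5 mg/kg group (0.16), whose level of 171 CPM stood above the 71.5 and 55.0 of the other pools. In C1 the value was -0.29 (adjusted p = 0.169).

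CD8 clusters gave a plainer picture at 50 mg/kg. Ly6c2 rose in 7 of the 8 clusters that could be fitted, by 2.90 (log2) in C0 (Cd226hi effector), 1.66 in C1 (Cd226lo effector), 2.56 in C2 and 2.25 in C3 (both cycling), 2.46 in C5 (Tcf7hi), 2.41 in C6 (Fcer1ghi) and 2.34 in C8 (exhausted), with edgeR adjusted p of at most 5.66e-12 in each. Of all genes 58.4%, 26.9%, 54.8%, 58.9%, 34.7%, 38.0% and 39.5% passed in these clusters, in the same order. All 7 passed with library-size scaling, at 1.45 to 2.33. In the naive cluster C7 the pools stood at 1281, 1183 and 1224 CPM with saline, 898, 1127 and 875 at 5 mg/kg and 1452, 1225 and 1265 at 50 mg/kg. The saline and 50 mg/kg pools overlapped there and the change of 0.07 did not pass (adjusted p = 0.865), where 3.52% of genes passed. CD8 C7 was therefore the highest cluster for Ly6c2 with saline (1230 ± 49.1) and the lowest of 8 at 50 mg/kg (1314 ± 121).

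The CD8 clusters also gave values of both signs at the lower dose, with no test between clusters. C0 rose by 1.40 (log2; edgeR adjusted p = 1.09e-26), from pools at 694, 642 and 699 to 1457, 1306 and 1414 CPM. C6 (0.75, adjusted p = 0.000573) and C4 (0.60, adjusted p = 0.0265) also rose, and C1 (0.42), C2 (0.41) and C3 (0.42) passed with TMM but not with library-size scaling (0.28, 0.13 and 0.06). C4 missed the threshold without pool 3 of the 5 mg/kg group (0.01) or saline pool 2 (0.45), C1 without saline pool 2 (0.35) or 5 mg/kg pool 2 (0.29), and C2 without saline pool 2 or 3 or 5 mg/kg pool 2 or 3 (0.25 to 0.36). The exhausted cluster C8 fell by 0.77 on the log2 scale (adjusted p = 0.0111; -1.14 with library-size scaling), with saline pools at 600, 643 and 565 and the 2 treated pools of at least 10 cells at 154 and 369 CPM. This fall passed in the 7 settings with another pool left out. Without either of these 2 treated pools C8 could not be fitted at 5 mg/kg, so no call of C8 at this dose was checked that way. C5 (-0.07) and C7 (-0.35, adjusted p = 0.175) did not pass. Of all genes 16.5%, 5.48%, 37.5%, 36.1%, 3.21%, 36.6%, 13.3%, 1.10% and 17.5% passed in C0 to C8 at this dose. In C7 the 50 mg/kg pools lay above the 5 mg/kg pools by 0.42 (adjusted p = 0.00818, where 4.41% of genes passed), a call lost without 5 mg/kg pool 1 (0.36) or pool 3 (0.34).

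**Figure D3:**
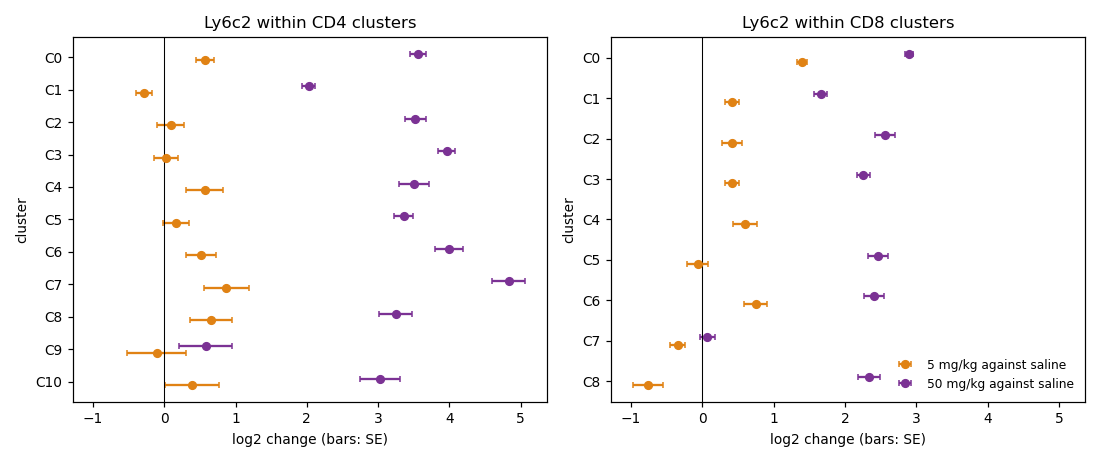
Change of Ly6c2 (log2, x axis; bars, SE) within each CD4 and CD8 cluster (y axis), the 2 doses each against saline. At 50 mg/kg CD4 C9 (0.58) and CD8 C7 (0.07) lie near 0 and all other fitted clusters lie at 1.66 or above, while at 5 mg/kg CD8 values run from -0.77 (C8) to 1.40 (C0).

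Cluster shares changed between the groups, so the levels were also recomputed with the shares held fixed. With each cluster at its saline share, Ly6c2 at 50 mg/kg lay 3.21 (log2 of raw CPM, CD4) and 2.17 (CD8) above saline, next to 3.21 and 2.11 with the shares as they were. At the shares of the 50 mg/kg group the values were 3.00 and 1.87, and saline levels alone placed at those shares gave 0.22 and 0.24. For Ly6c1 in CD4 cells at 5 mg/kg the value was 0.65 with the shares as they were and 0.27 at saline shares, and saline levels at the 5 mg/kg shares gave 0.47.

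Ly6c1 showed another distribution. In CD4 cells it was highest in the naive cluster C9, at 286 ± 36.8, 348 ± 65.6 and 449 ± 106 CPM in the saline, 5 mg/kg and 50 mg/kg groups, from 71, 125 and 159 UMIs. Neighbouring doses overlapped, and the change at 5 mg/kg did not pass (0.45, edgeR adjusted p = 0.181). C10 followed with saline at 63.5 CPM, and the effector clusters C0 and C1 held 3.06 and 5.51 with saline and 22.2 and 24.3 at 50 mg/kg. In C11, the regulatory T cells, the 50 mg/kg pools lay at 261, 193 and 487 CPM from 22 to 53 UMIs, and no comparison was possible because only 1 saline pool held 10 cells of it. No CD8 cluster exceeded 7.25 CPM, the naive cluster C7 included. Among saline clusters Ly6c1 was thus highest in naive CD4 cells and Ly6c2 in naive CD8 cells.

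Ly6a and Ly6e were present in every cluster. Ly6a with saline was highest in CD4 C10 (Isg15hi, 3767 CPM) and C11 (3525, 1 pool) and lowest in C7 and C9 (1434 each). In CD8 C7, the naive cells, it went the other way from the pooled cells at 50 mg/kg: pools at 1490, 1494 and 1302 CPM with saline and at 611, 719 and 763 at 50 mg/kg did not overlap, and Ly6a fell by 1.05 on the log2 scale (edgeR adjusted p = 6.57e-09; -1.04 with library-size scaling). In the same clusters at 50 mg/kg Ly6a rose in 6 of 8, from 0.31 in C6 to 1.03 in C0, with C3 and C6 negative under library-size scaling (-0.0021 and -0.03). C6 missed the threshold without saline pool 1 (0.24) or 50 mg/kg pool 2 (0.20). Ly6e rose at 50 mg/kg in 7 of 8 CD8 clusters, from 0.34 in C1 to 0.80 in C8, with C5 negative under library-size scaling (-0.04), and it did not pass in C7 (-0.15, adjusted p = 0.490). Both counts are of calls with TMM scaling, and calls that library-size scaling lost without a turn of sign are not listed.

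At 5 mg/kg Ly6a rose in 8 of 11 CD4 clusters and in 7 of 9 CD8 clusters, with CD8 C5 negative under library-size scaling (-0.06). Some of these calls rested on single pools. CD4 C1 missed the threshold without 5 mg/kg pool 1 (0.21), and CD4 C2 without saline pool 1 or 2 or 5 mg/kg pool 1 or 3 (0.17 to 0.22). In CD8 cells C1 missed it without pool 3 of the saline (0.29) or the 5 mg/kg group (0.30), C5 without saline pool 2 (0.34) or 5 mg/kg pool 1 (0.29), C6 without 5 mg/kg pool 2 (0.40) and C8 without saline pool 1 (0.35), saline pool 2 (0.46) or 50 mg/kg pool 3 (0.46). The largest of these values were 0.81 in CD4 C0 and 1.20 in CD8 C0. Ly6e rose in 6 of 11 CD4 and 5 of 9 CD8 clusters at this dose, with CD4 C7 (-0.09) and CD8 C5 (-0.21) negative under library-size scaling. Its call was lost in CD4 C3 without saline pool 1 or 2 or 5 mg/kg pool 1 or 3 (0.14 to 0.21), in CD4 C7 without saline pool 1 (0.23) or 5 mg/kg pool 1 (0.24), and in CD8 C5 without saline pool 2 or any 1 of the 5 mg/kg pools (0.19 to 0.23). It fell by 0.41 on the log2 scale in CD4 C4, the follicular helper cells (edgeR adjusted p = 0.00988), a call lost without saline pool 2 (-0.39), saline pool 3 (-0.43) or 5 mg/kg pool 3 (-0.36). Of all genes 16.2%, 4.09%, 5.32%, 6.01%, 7.74%, 30.3%, 11.8%, 24.7%, 7.90%, 16.4% and 19.4% passed in CD4 C0 to C10 at this dose. These cluster counts are of calls with TMM scaling. Calls that library-size scaling lost without a turn of sign are not listed. In raw CPM at saline cluster shares Ly6e changed by -0.04 (log2, CD4) and 0.07 (CD8) at 5 mg/kg, and Ly6a by 0.20 and 0.29.

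The higher level of Ly6c2 at 50 mg/kg was carried by more cells and by more UMIs per cell. Because the cells differed in depth, each cell was thinned to 2000 UMIs and shallower cells were left out (397, 464 and 80 CD4 cells and 121, 83 and 8 CD8 cells in the saline, 5 mg/kg and 50 mg/kg groups, TEa cells included). After thinning, 25.1 ± 0.454%, 21.2 ± 1.09% and 70.3 ± 4.52% of CD4 cells (mean ± SD, n = 3 pools) had a Ly6c2 UMI, and without thinning 33.8%, 33.2% and 78.2%. The share at 5 mg/kg lay below saline although the CPM lay above it, so no order is read between these 2 groups. CD4 cells with 5 or more Ly6c2 UMIs made up 0.924%, 2.19% and 32.3% of the thinned cells, and a CD4 cell with any Ly6c2 UMI held 1.69, 2.03 and 4.86 of them on average.

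In CD8 cells the thinned shares with a Ly6c2 UMI were 45.2 ± 3.81%, 48.6 ± 3.06% and 83.9 ± 3.02% (58.0%, 65.5% and 91.4% without thinning). They rose over the doses in an exact two-sided Jonckheere-Terpstra test over the 1680 assignments of the 9 pools (p = 0.00952, adjusted over the 4 genes 0.0190). Cells with 5 or more Ly6c2 UMIs made up 6.44%, 9.14% and 43.7% of CD8 cells. In the naive cluster C7 the thinned share was 75.4%, 68.2% and 62.6%, while in the effector cluster C0 it was 51.7%, 66.0% and 95.2%. In CD4 cells the naive cluster C9 had 23.8%, 23.8% and 8.61%, and the effector cluster C0 33.1%, 29.1% and 85.7%. The shares of the naive clusters at 50 mg/kg went against their levels in CPM, so no order is read from them.

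The other members differed in kind. Ly6c1 was detected in 1.35%, 2.71% and 5.04% of thinned CD4 cells and in 0.261%, 0.213% and 0.573% of CD8 cells, where the trend did not pass (exact p = 0.0738, adjusted 0.0984; adjusted 0.0381 without either saline pool 2 or 5 mg/kg pool 1). Ly6a was in 94.3% to 95.1% of CD4 and 81.0% to 85.2% of CD8 cells of each group (CD8 trend, exact p = 1), and Ly6e in 97.6% to 98.3% and 93.2% to 96.3% (CD8 trend, exact p = 0.00952, adjusted 0.0190). In cells outside the cycling clusters neither trend passed after adjustment over the 4 genes (Ly6c2, exact p = 0.0417, adjusted 0.167; Ly6e, exact p = 0.277, adjusted 0.370). Without thinning the adjusted exact p was 0.00476 for Ly6c2 and 0.0556 for Ly6e. Both calls also rested on single pools, with an adjusted exact p of 0.0571 for Ly6c2 without saline pool 3, 5 mg/kg pool 2 or any 1 of the 50 mg/kg pools, and for Ly6e without saline pool 1 or 3, 5 mg/kg pool 2 or 50 mg/kg pool 1. As a measure of free RNA, Cd8b1, which CD4 cells should lack, had a UMI in 27.2%, 17.6% and 4.35% of thinned CD4 cells (40.6%, 35.4% and 13.6% unthinned), against 88.8%, 92.7% and 98.9% of CD8 cells. Cd8b1 was the more abundant RNA in CD8 cells, at 1016 CPM or more in each pool. Ly6c2 had means of 407 and 658 CPM there with saline and at 5 mg/kg, and Ly6c1 had 1.28 CPM with saline. The Cd8b1 share is therefore no threshold for the CD4 shares of Ly6c2 and Ly6c1. How much free RNA adds to them was not tested. At 50 mg/kg the Cd8b1 share of CD4 cells was lowest and the Ly6c2 share highest, and nothing about free RNA is read from this.

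**Figure D4:**
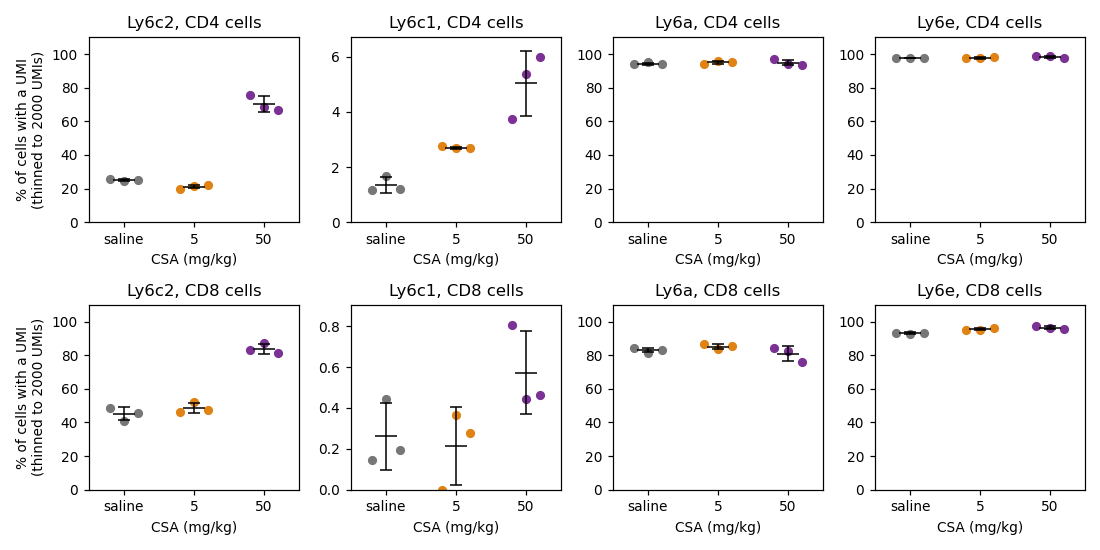
Percent of cells with at least 1 UMI of each gene after thinning every cell to 2000 UMIs (y axis; the Ly6c1 panels run to lower values than the others), per pool of saline, CSA 5 mg/kg and CSA 50 mg/kg mice, for CD4 (top) and CD8 cells (bottom). Points are pools, lines means and bars the SD (n = 3). Ly6c2 rises to 70.3% of CD4 and 83.9% of CD8 cells at 50 mg/kg, while the group means of Ly6a lie at 81.0% to 95.1% and those of Ly6e at 93.2% to 98.3% over both lineages.

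The split by clonotype did not enter the choice of genes, but its CD4 sums come from the pools that did. P-values of the members in CD4 clonotype contrasts and their moves are therefore not wholly independent of that choice. Cells whose receptor, by amino acid sequence, was shared by at least 2 cells of the same pool and lineage (expanded) were compared with cells whose receptor was seen once (single), in pool sums. In CD8 cells of saline-treated mice all 3 members tested were lower in expanded cells: Ly6c2 at 406 against 557 CPM (log2 -0.50, edgeR adjusted p = 0.000557), Ly6a at 999 against 1227 CPM (-0.33, adjusted p = 1.24e-05) and Ly6e at 1542 against 1928 CPM (-0.35, adjusted p = 1.26e-07), where 10.6% of genes passed and 5.82% as lower. At 5 mg/kg they were lower too, by contrasts of -0.69, -0.22 and -0.28 (adjusted p = 0.000158, 0.00471 and 2.65e-05, where 3.40% passed and 1.68% as lower), and the call of Ly6a was lost without 5 mg/kg pool 2 (-0.15). None passed at 50 mg/kg, with -0.01, -0.05 and 0.03 (adjusted p = 0.977, 0.689 and 0.747, where 1.86% passed).

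The difference between these contrasts was tested directly, a test added after the values had been seen. From saline to 50 mg/kg the contrast between expanded and single CD8 cells moved by 0.38 ± 0.05 (log2) for Ly6e (edgeR adjusted p = 9.20e-05) and by 0.28 ± 0.06 for Ly6a (adjusted p = 0.0326), where 0.615% of genes passed, and by 0.49 for Ly6c2, which did not pass (adjusted p = 0.0583). For Ly6a the call was lost without saline pool 1 (0.29) or 2 (0.21) or 50 mg/kg pool 1 (0.22) or 3 (0.28). For Ly6c2 a call appeared without saline pool 1 (0.63) or any 1 of the 5 mg/kg pools (0.49 each). Expanded cells were spread over other clusters than single cells, with 0%, 0% and 0.118% of expanded against 3.79%, 7.40% and 5.56% of single CD8 cells in the naive cluster. The cycling cluster C4, which the study describes as the most clonally expanded CD8 cluster, shrank with dose. It held 1015, 81 and 20 cells with saline, 5 mg/kg and 50 mg/kg. With saline it had the lowest Ly6a of the CD8 clusters, at 963 CPM. The part of C4 in the moves was not tested. Within clusters C0 and C1 alone no CD8 contrast passed: Ly6c2 gave -0.29, -0.29 and 0.07, Ly6a -0.19, -0.06 and -0.17 and Ly6e -0.18, -0.13 and -0.01, and the moves from saline to 50 mg/kg fell to 0.17 for Ly6e (adjusted p = 0.906) and 0.02 for Ly6a (adjusted p = 0.999). These clusters hold fewer cells than the whole.

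In CD4 cells Ly6c1 was lower in expanded than in single clonotypes. Expanded cells held 1, 2 and 44 Ly6c1 UMIs with saline, 5 mg/kg and 50 mg/kg, and single cells 123, 159 and 511. Expanded cells were also fewer, and the levels were 0.363, 0.824 and 8.42 CPM against 13.5, 16.2 and 36.5 CPM. The fitted contrasts of -5.09, -4.32 and -2.06 all passed (edgeR adjusted p at most 9.92e-06), and the first 2 rest on 1 and 2 UMIs on the expanded side. The naive cluster, where Ly6c1 was highest, held 0% of expanded and 2.68%, 3.65% and 3.59% of single CD4 cells, and within C0 and C1 alone none of the contrasts passed (-1.38, -4.77 and -0.98). Ly6c2 in expanded CD4 cells was at 165 against 194 CPM with saline (-0.23, adjusted p = 0.265; it passed without saline pool 2, at -0.44). It was lower at 5 mg/kg at 138 against 202 CPM (-0.54, adjusted p = 0.00398) and higher at 50 mg/kg at 2138 against 1711 CPM (0.32, adjusted p = 0.00287). Of all genes 8.13%, 6.63% and 6.57% passed in these 3 comparisons. The call at 5 mg/kg was lost without pool 1 (-0.40) or pool 2 (-0.36) of that group, the call at 50 mg/kg without pool 1 (0.30), and the move of 0.55 from saline to 50 mg/kg did not pass (adjusted p = 0.0697, where 0.328% did) but did so without saline pool 2 (0.76), 5 mg/kg pool 2 (0.55) or 5 mg/kg pool 3 (0.56).

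Large clones of the saline pools differed widely in Ly6c2. The saline pools held 15 CD8 clones of at least 10 cells (10 to 64 cells each), whose Ly6c2 ran from 49.3 to 1349 CPM with a median of 240. A clone of 60 cells in pool 1 held 1349 (457 UMIs, exact 95% Poisson interval 1228 to 1479) and another of 10 cells in the same pool 1230 (63 UMIs, 945 to 1574), while the other 13 lay at 49.3 to 405. The largest clone, of 64 cells in pool 2, was at 104 (76.4 to 138). The intervals cover counting error only. The 2 high clones had 75% and 70% of their cells in cycling clusters and the others 63.6% to 94.6%. Ly6a ran from 363 to 1361 and Ly6e from 946 to 1888 CPM over the same 15 clones, narrower ranges than that of Ly6c2. CD4 cells had 4 such clones in the saline pools, with 67.5 to 372 CPM of Ly6c2, 1 in the 5 mg/kg pools, with 49.7, and 1 in the 50 mg/kg pools, with 3224. The only such CD8 clone outside the saline pools came from the 5 mg/kg group and held 400.

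**Figure D5:**
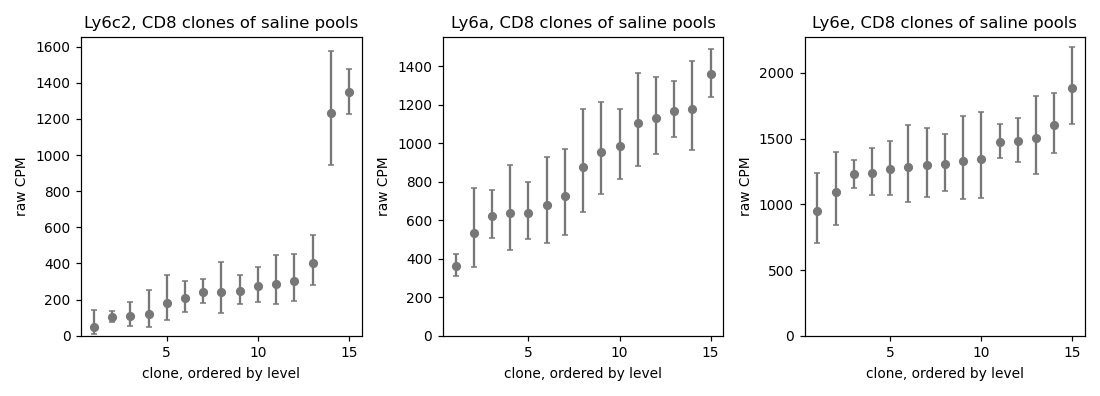
Ly6c2, Ly6a and Ly6e in the 15 CD8 clones of at least 10 cells from saline pools, as raw CPM (y axis), with the clones ordered by level within each panel (x axis) and exact 95% Poisson intervals as bars. For Ly6c2, 2 clones at 1230 and 1349 stand apart from the other 13, which lie at or below 405, and Ly6a and Ly6e form a continuous range.

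TEa cells, which all carry the same receptor, were compared with the other CD4 cells of their pools where at least 2 pools held 10 of them. With saline Ly6c2 lay at 87.6, 105 and 181 CPM in TEa and 191, 174 and 212 in other CD4 cells (log2 -0.56, edgeR adjusted p = 0.247, where 0.703% of genes passed). At 5 mg/kg it lay at 290, 120 and 188 against 174, 215 and 193 (0.03, adjusted p = 0.979, where 1.15% passed), with a negative sign (-0.39) without pool 1 of that dose. Ly6a differed by 0.03 and -0.13 and Ly6e by 0.05 and -0.04, and none of these passed. Ly6c1 had 0 UMIs in TEa cells with saline and 1 UMI at 5 mg/kg, where its contrast of -3.59 passed (adjusted p = 0.0269) and was lost without pool 1 (-3.20) or pool 3 (-2.69). At 50 mg/kg only 11, 7 and 9 TEa cells were left, and Ly6c2 stood at 759, 538 and 1031 CPM in them, against 2072, 1804 and 1511 in the other CD4 cells of these pools, with no test.

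Other genes of the family and its surroundings were taken from lists. Of 36 other Ly6/uPAR genes 20 were in the table and 1 (CD4) and 2 (CD8) were expressed enough to be tested. Ly6g5b was 1.14 (log2) higher in CD4 cells at 5 mg/kg (edgeR adjusted p = 0.000529) and -0.21 at 50 mg/kg (adjusted p = 0.510), and in CD8 cells it was 1.10 and 1.24 higher at the 2 doses. With library-size scaling the CD8 value at 5 mg/kg did not pass (0.68, adjusted p = 0.0738), and the CD4 value at 50 mg/kg passed as lower (-0.65, adjusted p = 0.0416). Ly6k in CD8 cells was 1.20 higher at 5 mg/kg (adjusted p = 0.00128) and 0.16 at 50 mg/kg (adjusted p = 0.650; -0.37 with library-size scaling). The other 19 (CD4) and 18 (CD8) genes of the list that were in the table did not pass the filter on low counts.

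The lists that follow depend on the scaling, so the counts and the median with library-size scaling stand in brackets after each. Over all genes 26.1% passed as higher and 25.6% as lower in CD4 cells at 5 mg/kg, and 34.7% and 35.8% at 50 mg/kg. In CD8 cells these shares were 29.9% and 30.3% at 5 mg/kg and 37.1% and 36.9% at 50 mg/kg.

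Of 14 genes within reach of the Ly6 cluster on chromosome 15 that were tested in CD4 cells, 6 were higher and 4 lower at 5 mg/kg, median 0.12 (3 and 4, median -0.24), and 4 higher and 6 lower at 50 mg/kg, median -0.21 (1 and 9, median -0.65). Of 16 in CD8 cells 7 were higher and 5 lower at 5 mg/kg, median 0.25 (1 and 6, median -0.17), and 7 higher and 6 lower at 50 mg/kg, median -0.04 (4 and 9, median -0.57). Ptp4a3, a phosphatase gene, was higher by 1.31 in CD8 cells at 50 mg/kg, and in CD4 cells at that dose it was at -0.11 (adjusted p = 0.241; -0.55 and past the threshold with library-size scaling). Eef1d, a translation elongation factor subunit, was 0.60 and 0.68 higher in CD8 cells at 5 and 50 mg/kg.

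Interferon-induced genes form a program to which Ly6a and Ly6e belong, and 26 of them were tested. In CD4 cells 11 were higher and 6 lower at 5 mg/kg, median 0.17 (6 and 10, median -0.19), and 5 higher and 13 lower at 50 mg/kg, median -0.27 (1 and 20, median -0.71). In CD8 cells 13 were higher and 5 lower at 5 mg/kg, median 0.34 (3 and 9, median -0.08), and 8 higher and 9 lower at 50 mg/kg, median 0.02 (0 and 16, median -0.51). From 5 to 50 mg/kg 0 were higher and 18 lower in CD4 cells (0 and 20), where 19.9% of all genes passed as higher and 21.3% as lower. In CD8 cells 2 were higher and 11 lower between the doses (1 and 14), where 2167 of 10841 genes passed as higher and 21.0% as lower. Ifi27l2a, a small interferon-induced membrane protein, was higher by 1.36 and 1.07 in CD4 cells at the 2 doses, while Irf1, an interferon-induced transcription factor, fell by 0.30 and 0.53 on the log2 scale.

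Of 12 other GPI-anchored proteins of lymphocytes, 5 were higher and 4 lower in CD4 cells at 5 mg/kg, median 0.13 (2 and 6, median -0.22), and 5 higher and 6 lower at 50 mg/kg, median -0.57 (4 and 6, median -1.01). In CD8 cells 4 were higher and 2 lower at 5 mg/kg, median -0.02 (2 and 7, median -0.44), and 7 and 4 at 50 mg/kg, median 0.38 (3 and 6, median -0.15). Cd52, the target of alemtuzumab, was higher by 1.19 and 1.44 in CD4 and by 1.46 and 1.80 in CD8 cells at 5 and 50 mg/kg, and stayed positive with library-size scaling (0.84 to 1.27). Of 26 genes that build or attach the GPI anchor, 7 were higher and 5 lower in CD4 cells at 5 mg/kg, median -0.02 (2 and 16, median -0.38), and 9 and 8 at 50 mg/kg, median 0.02 (2 and 15, median -0.42). In CD8 cells 7 were higher and 8 lower at 5 mg/kg, median -0.06 (2 and 19, median -0.48), and 10 and 9 at 50 mg/kg, median -0.06 (3 and 18, median -0.59). Dpm3, a subunit of the enzyme that makes the mannose donor, was higher in all 4 comparisons, by 1.25 to 1.69.

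Of 12 genes of central memory and recirculation, 1 was higher and 6 lower in CD4 cells at 5 mg/kg, median -0.12 (0 and 10, median -0.47), and 6 higher and 4 lower at 50 mg/kg, median 0.15 (3 and 7, median -0.29). In CD8 cells 5 were higher and 3 lower at 5 mg/kg, median 0.06 (0 and 7, median -0.36), and 6 and 3 at 50 mg/kg, median 0.33 (2 and 6, median -0.20). Klf2, a factor of quiescence and recirculation, was higher at 50 mg/kg by 0.94 in CD4 and 1.05 in CD8 cells, while Il7r fell by 1.04 on the log2 scale in CD4 cells. Of the effector and migration genes, 4 of 15 were higher and 6 lower in CD4 cells at 5 mg/kg, median -0.12 (1 and 12, median -0.48), and 8 and 5 at 50 mg/kg, median 0.47 (6 and 7, median 0.03). In CD8 cells 5 of 16 were higher and 7 lower at 5 mg/kg, median -0.19 (2 and 13, median -0.61), and 9 and 5 at 50 mg/kg, median 0.47 (5 and 8, median -0.06). Ccl5, a chemokine of memory and effector T cells, was higher by 1.91 in CD4 and 3.01 in CD8 cells at 50 mg/kg, while Itgb1 fell by 1.42 in CD4 and Itga4 by 1.74 in CD8 cells on the log2 scale.

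The genes most like each member across clusters and groups were found from correlations of log2(CPM + 10) over 32 CD4 and 26 CD8 points, each a cluster in a group with at least 50 cells, ranked by the lower of the 2 values of r. These points share libraries and depth, so r is a description. Nearest to Ly6c2 were Ctla2a (0.84), Lmna (0.81), Ccl5 (0.81), Epsti1 (0.79) and Dnajc15 (0.78). Nearest to Ly6a were Mndal, Ly6e and Phf11b (0.65 each), and nearest to Ly6e were Phf11b (0.71), Pttg1 (0.67) and Ly6a (0.65). Ly6c1 had no close neighbour (Cdipt, 0.56), and its r with Ly6c2 was 0.09 in CD4 and 0.42 in CD8 points.

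Markers of other cells, several of which carry Ly6 proteins, were summed per pool, and the lowest and highest pool of each group are given in the order saline, CSA 5 mg/kg, CSA 50 mg/kg. The 8 markers of monocytes and macrophages, which are rich in Ly6C, came to 36.5 to 38.2, 35.4 to 57.9 and 35.1 to 52.6 CPM in CD4 pools, and to 54.8 to 57.8, 52.5 to 57.5 and 79.1 to 102 CPM in CD8 pools, with none of the 8 at 0. The 7 markers of neutrophils, which also carry Ly6 proteins, were highest at 5 mg/kg. They came to 58.9 to 86.2, 113 to 200.3 and 74.9 to 109 CPM in CD4 pools, and to 56.6 to 86.3, 122 to 127 and 86.0 to 108 CPM in CD8 pools, with 1 of the 7 at 0 in the CD4 pools of the first and the last group. Plasma cell markers lay at 17.8 to 21.2, 10.7 to 65.3 and 32.0 to 90.6 CPM in CD4 pools, and at 29.3 to 36.7, 46.3 to 161 and 244 to 463 CPM in CD8 pools. B cell markers lay at 226 to 240.1, 293 to 389 and 412 to 419 CPM in CD4 pools, and erythroid markers at 2.67 to 12.1, 5.42 to 7.03 and 31.2 to 41.2 CPM. Those of NK cells lay at 6.11 to 6.82, 4.75 to 7.75 and 0.834 to 2.69 CPM and those of endothelium at 60.2 to 76.5, 44.7 to 56.9 and at most 23.1 CPM in the same pools. In CD8 pools the NK cell markers lay at 6.53 to 9.90, 17.7 to 20.1 and 6.74 to 14.5 CPM. These sums moved with dose beside the Ly6 genes, and their part in the changes was not tested. A total of 436 cells shared a barcode with a cell of another capture, and 1080 cells had a second hashtag of at least 0.5 times the strongest. In cells with a single strong hashtag each dose comparison of the members fell on the same side of the threshold.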

How the data were processed

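UMI counts per gene and cell were deposited by the authors as tables of raw counts for CD4 and CD8 cells, with cluster numbers, hashtag identities, clonotypes and per-cell fractions (such as the share of mitochondrial UMIs) in metadata that the authors deposited beside them. The submitters' processing notes name Cell Ranger, Seurat 3.0.0 and mm10. The Cell Ranger version and the annotation are not given in the sources used here. The counts are filtered cells, no doublet caller was run on them here, and the fractions entered no test.

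Counts were summed per pool and lineage, cluster, or clonotype class, with at least 10 cells per pool and cluster. Genes with low counts were removed (filterByExpr), and edgeR 4.0.16 (R 4.3.3) quasi-likelihood tests with TMM scaling were run over all genes kept, with all 3 groups in each fit and Benjamini-Hochberg adjustment at 0.05. CD8 and CD4 sums of the same pools were compared with the pool as a block, and likewise expanded with single clonotypes and TEa with other CD4 cells. The steps were checked on simulated counts. Pools differ by animals, so p-values describe the spread between pools of 1 capture per group. Alternatives were DESeq2 1.42.0, library-size scaling, no filter, thinning to 2000 UMIs per cell, cells outside the cycling clusters, single pools left out, and the hashtag number as a block. Added after the data had been seen were the cells with 1 strong hashtag, the clonotypes within C0 and C1, and the test of how the clonotype contrasts moved from saline. Member genes and gene lists were chosen with earlier results of these data known. Named list genes are the 4 with the highest mean CPM of each list. Hashtag numbers were not treated as pairs, since the deviations of pools with the same number from their group means correlated at -0.08 to 0.06.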

Additional observations from a re-analysis of the deposited data

Results flagged for a closer look

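The differences given here, 3 in all, passed a test of the difference itself (edgeR, Benjamini-Hochberg adjustment over all genes). The change of Ly6c2 from saline to 5 mg/kg was 0.31 (log2) larger in CD8 than in CD4 cells (adjusted p = 0.0219). It was higher by 0.70 in CD8 and by 0.37 in CD4 cells, and 5 of the 9 pools each removed the call when left out. The CD4 pools of this test also entered the choice of members. The contrast of expanded against single CD8 clonotypes moved from saline to 50 mg/kg by 0.38 for Ly6e (adjusted p = 9.20e-05, from -0.35 to 0.03) and by 0.28 for Ly6a (adjusted p = 0.0326, from -0.33 to -0.05). The test of these moves was added after the values had been seen. The call for Ly6a was lost without any 1 of 4 of the 9 pools, with values of 0.21 to 0.32 over all pools left out, and that for Ly6e was kept without each. Within C0 and C1 these moves were 0.17 and 0.02 and did not pass. Groups of 3 pools are too small for a test of single outlying pools.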

How the results depend on the processing

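Treatment and capture coincide, 3 pools stand for 6 mice per group, depth rises with dose, and Ly6c1 rests on few UMIs. With library-size scaling the CD4 values at 5 mg/kg came to 0.016 for Ly6c2 and 0.025 for Ly6e, those at 50 mg/kg to 3.22 (Ly6c2), 0.35 (Ly6a) and 0.16 (Ly6e), and in CD8 cells Ly6e at 5 mg/kg to 0.087 and Ly6c1 at 50 mg/kg to 0.58. Outside the cycling clusters the CD4 values were 3.36 (Ly6c2) and 0.49 (Ly6e) at 50 mg/kg, and 2.98 and 0.10 between the doses, with 0.058 for Ly6e in CD8 cells between the doses. Ly6c2 in CD8 cells gave 1.87 at the cluster shares of 50 mg/kg. The CD4 clusters with higher Ly6c2 at 5 mg/kg numbered 2, and 1 by DESeq2, 0 with library-size scaling and 1 to 2 with pools left out. The adjusted exact p of the Ly6c2 trend in CD8 shares was 0.167 outside the cycling clusters and 0.014 to 0.057 with pools left out. DESeq2 passed the Ly6e difference between lineages at 5 mg/kg (0.12). The causes of these moves were not tested.

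With library-size scaling these within-cluster values turned their sign: Ly6e in CD4 C7 (-0.095) and CD8 C5 (-0.21) and Ly6a in CD8 C5 (-0.064) at 5 mg/kg, Ly6a in CD8 C3 (-0.0021) and C6 (-0.033) and Ly6e in C5 (-0.038) at 50 mg/kg, and Ly6e in CD8 C0 between the doses (-0.030). Within C0 and C1 the expanded contrast turned for CD4 Ly6a with saline (0.047) and at 50 mg/kg (-0.10), CD4 Ly6e at 50 mg/kg (-0.041) and CD8 Ly6c2 (0.074) and Ly6e (-0.011) at 50 mg/kg, and its move from saline for CD4 Ly6c1 at 5 mg/kg (-3.40) and CD4 Ly6a (-0.15) and Ly6e (-0.032) at 50 mg/kg. With at least 3 cells per expanded clonotype it turned for CD8 Ly6e at 50 mg/kg (-0.043), and the move turned for CD4 Ly6c1 (-3.87), CD4 Ly6e (0.052) and CD8 Ly6a (-0.0089) at 5 mg/kg. Without a filter Ly6c2 in TEa cells at 5 mg/kg was -0.019.

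Counts of genes past the threshold that moved by more than 1.5 times were as follows. Thinning gave 2628 (CD4) and 2638 (CD8) between the doses and leaving out cycling clusters 2836 (CD8). DESeq2 gave 2153, 1982 and 1537 between lineages with saline, 5 and 50 mg/kg, 257 and 741 for the difference of their changes at 5 and 50 mg/kg, 259, 269 and 171 (CD4) and 275, 112 and 42 (CD8) between clonotype classes, 0 (CD4, 5 mg/kg) and 39 (CD8, 50 mg/kg) for the moves from saline, and 27 and 28 for TEa cells. Within C0 and C1 the clonotype counts were 58, 34 and 7 (CD4) and 19, 4 and 9 (CD8), with 0 and 4 (CD4) and 1 and 2 (CD8) for the moves. At least 3 cells gave 410 and 404 (CD4, 5 and 50 mg/kg), and moves of 13 (CD4, 50 mg/kg), 3 and 19 (CD8). No filter gave moves of 44 and 131 (CD4) and 113 and 136 (CD8) and 363 for CD8 clonotypes at 50 mg/kg, and library-size scaling 13 for the CD4 move at 5 mg/kg.

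With pools left out in turn, counts ran from 167 to 477 (402 with all) for the difference between lineages at 5 mg/kg, 393 to 814, 361 to 656 and 299 to 669 for CD4 and 556 to 1151, 96 to 389 and 34 to 235 for CD8 clonotypes, 0 to 12 and 11 to 42 (CD4) and 11 to 48 and 19 to 70 (CD8) for the moves, and 43 to 76 and 54 to 114 for TEa cells. Member values ran from -0.50 to 0.21 (Ly6c1, CD8, 5 mg/kg), 0.90 to 1.61 (Ly6c1, CD8, between doses), -0.10 to 0.086 (Ly6a, CD8, between doses), -0.0070 to 0.042 (Ly6e, CD4 clonotypes, 50 mg/kg), -0.025 to 0.0056 (Ly6c2, CD8 clonotypes, 50 mg/kg), -3.36 to 3.52 (Ly6c1) and -0.088 to 0.040 (Ly6e) for the CD4 move and -0.34 to 0.094 (Ly6c2) for the CD8 move at 5 mg/kg, and -0.0041 to 0.14 (Ly6e, saline) and -0.39 to 0.31 (Ly6c2, 5 mg/kg) in TEa cells.

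With the hashtag number as a replicate block 5413, 7433 and 4238 genes passed in CD4 and 6464, 7977 and 4317 in CD8 cells at 5 mg/kg, at 50 mg/kg and between the doses (5467, 7454, 4353, 6523, 8024 and 4443 without it), and the block changed no call of a member (Ly6c2 in CD4 cells at 5 mg/kg, 0.38). Alternatives other than single pools left out gave 313 values for counts of genes, the members' pooled dose changes and the main cluster and share results. Of these 258 were classed as the same, 49 as moved and 6 as weaker. The members' values between lineages, in clonotypes, TEa cells and single clusters, and the other CD8 shares, were classed apart. There 316 were the same, 58 weaker, 20 reversed in sign and 6 stronger. The sign turns listed above are among the reversed values. These classes do not measure the side of the threshold for every value. Counts of genes were classed by their size, and the members' CD4 values at 50 mg/kg had no p-value.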
